A study of Mus musculus with 12 samples.

Results

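The genes described here are 10 interferon-induced antiviral effectors of mouse: Ifit1, Ifit2 and Ifit3 of the IFIT family, Oas1a, Oas2, Oasl1 and Oasl2 of the OAS family, and Ifi27, Ifi27l2a and Ifi27l2b of the IFI27 family. They were found by exact gene symbol, and 10 of 10 were present among the 21936 genes listed. They were chosen on the difference between knockout and wild-type muscle in these same libraries, so their levels and fold changes are given as a description, with no test. The knockout group lacked PTRF, the caveolar coat protein now called cavin 1 (gene Cavin1), and the other group was wild type. Both were C57BL/6N mice of 3 months. The assay was sequencing of polyadenylated RNA, and the labels name the muscle as soleus or quadriceps, with 3 samples per muscle and genotype. They do not give the cells or the age at which PTRF was deleted, or whether each numbered sample was a separate animal.

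Interferons bind receptors on the cell surface, and the receptor-bound kinases JAK1 and TYK2 phosphorylate STAT proteins. STAT2 and IRF9 are part of a factor that binds the interferon-stimulated response element in the promoters of many genes. IFIT proteins bind viral RNA that lacks the marks of host messenger RNA and block its translation. OAS enzymes sense double-stranded RNA and make short oligoadenylates that serve as an antiviral messenger. IFI27 proteins are small hydrophobic proteins of mitochondrial and nuclear membranes. In resting muscle, as in most tissues, these genes are usually weakly transcribed.

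Soleus and quadriceps samples that share a genotype and a number held equal values for all genes above 0, with a largest difference of 0 TPM once absent genes were set to 0. Wild-type sample 3 of soleus also lists 5815 genes at 0. The 12 samples were therefore counted as 6 libraries, 3 knockout and 3 wild type, and the muscle of origin is unknown. Levels are in TPM, a unit inferred from the values, which divides reads by transcript length and scales each library to a fixed total. Read depth is unknown. TPM totals were 848224 to 872482 in knockout libraries and 843194 to 849159 in wild-type libraries. Mitochondrially encoded transcripts took 39.0% to 45.7% of that total in knockout libraries and 43.0% to 52.3% in wild-type libraries. Cavin1 had 0.284, 0.0905 and 0.0254 TPM in knockout libraries, against 45.2, 40.0 and 42.2 TPM in wild-type libraries. The summed level of 9 skeletal muscle markers was 41526 to 49923 TPM in knockout libraries and 37516 to 42352 TPM in wild-type libraries. That sum does not reflect each marker. Myh4, a myosin heavy chain gene, had 238, 580 and 346 TPM in knockout libraries and 6.43, 194 and 4.21 TPM in wild-type libraries. Des averaged 1764 TPM in knockout muscle and 889 TPM in wild-type muscle. The other markers had ratios of knockout to wild-type means of 0.877 to 1.35.

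All 10 genes were higher in each knockout library than in any wild-type library. Groups that do not overlap in that direction were common in the whole comparison, at 48.7% of the 11056 genes that reached 1 TPM in 3 or more libraries. Of those tested genes, limma on log2(TPM + 1) called 36.3% higher in knockout muscle and 2.92% lower at an adjusted p under 0.05. After trimmed-mean rescaling of the libraries the call was 1615 genes higher and 1473 lower, against 4016 and 323 on the deposited scale. The median log2 fold change of the 10 genes was 2.01 (range 0.61 to 3.51), and that of all tested genes was 0.33 on the deposited scale and -0.01 after rescaling. The filter let 9 of the 10 genes through, 4 of them (Ifit1, Oas1a, Oas2 and Ifi27l2b) by their knockout libraries alone, and Oasl1 did not pass it. As groups, the IFIT genes had mean ratios of knockout to wild type of 3.49 to 21.6, the OAS genes of 6.90 to 16.0 and the IFI27 genes of 1.53 to 163. In whole muscle, more cells of a type that expresses a gene and more RNA of it per cell cannot be told apart.

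**Figure D1:**
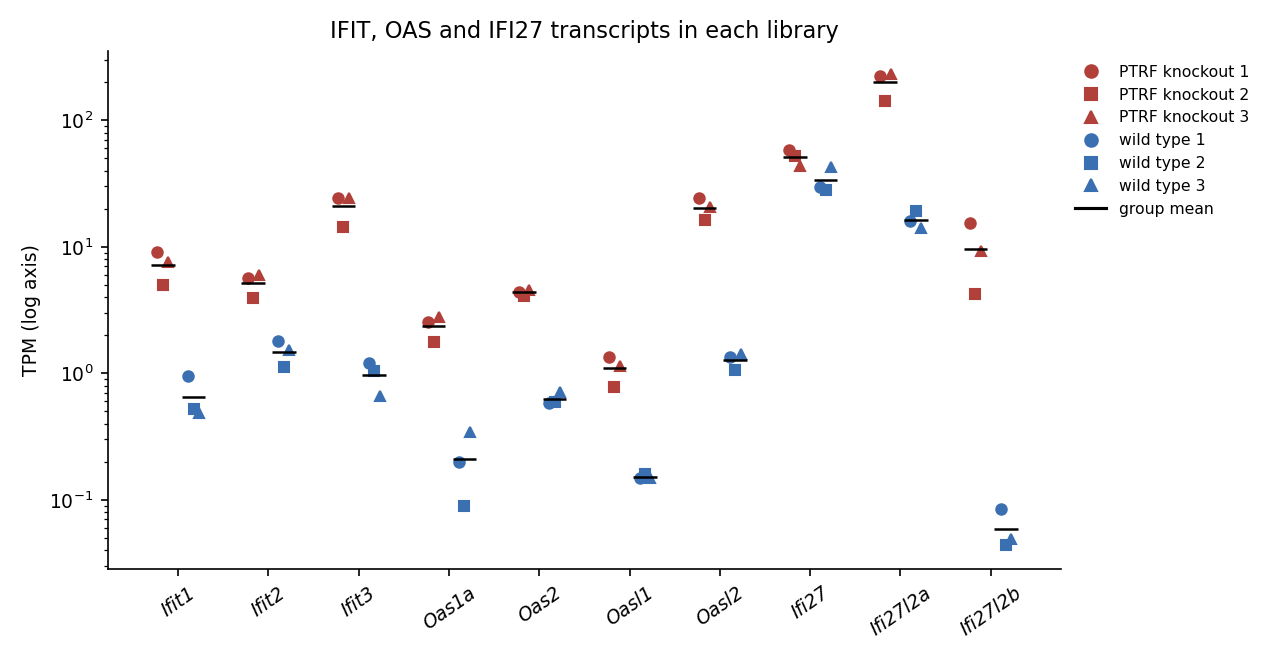
TPM of the 10 genes in each library on a log axis, with knockout points left of wild-type points and a bar at each group mean (n = 3 each). The groups are apart for all 10 genes, most narrowly for Ifi27, where the lowest knockout library stood 0.615 TPM above the highest wild-type library.

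The IFIT genes lie on chromosome 19 between positions 34550694 and 34650009 (GRCm38), on the plus strand and in the order Ifit2, Ifit3, Ifit1. Ifit3, whose human counterpart binds and stabilises IFIT1, had 24.3, 14.4 and 24.5 TPM in knockout libraries 1 to 3, against 1.21, 1.05 and 0.662 TPM in wild-type libraries. Knockout library 2 was the lowest of its group and still above every wild-type library. The means were 21.04 ± 5.78 TPM in knockout muscle and 0.974 ± 0.282 TPM in wild-type muscle (SD, n = 3 each), a ratio of 21.6 and a log2 fold change of 3.45. Ifit1, which binds viral RNA caps that lack host methylation, had 9.06, 5.01 and 7.63 TPM in knockout libraries and 0.946, 0.521 and 0.482 TPM in wild-type libraries. No wild-type library reached 1 TPM, and knockout library 2 was again the lowest of its group. Its mean ratio was 11.1 and its log2 fold change 2.30. Ifit2, which restricts neurotropic viruses in mice, had 5.62, 3.94 and 5.95 TPM in knockout libraries and 1.81, 1.13 and 1.52 TPM in wild-type libraries. It had the highest wild-type mean of the IFIT genes, 1.48 ± 0.341 TPM, and the lowest mean ratio of the family, 3.49, with a log2 fold change of 1.31.

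Ifit3 and Ifit1 share a promoter feature that Ifit2 lacks in the windows read here. RefSeq windows from 250 bases before to 50 bases after the start (GRCm38.p6) were available for 6 of the 10 genes, as 7 windows, 2 of them for Ifit2. They were searched on both strands for the core of the interferon-stimulated response element, GAAANNGAAA or its reverse complement TTTCNNTTTC, and for the gamma-activated site TTCNNNGAA, a motif of the interferon gamma response. Ifit1 and Ifit3 each held 2 matches to the first motif, with the same letters in the same order. In Ifit1 they began 104 and 85 bases before the start, and in Ifit3 156 and 122 bases before it. Oas1a held 2 overlapping matches just before the start and a gamma-activated site. The Oasl2 window held neither motif. The 4 windows are shown on the strand of the gene with the response-element matches in capitals, to set genes with and without the motif side by side. They are Ifit1 at chr19:34640639-34640938 (plus strand), Ifit3 at chr19:34583279-34583578 (plus strand), Oas1a at chr5:120907476-120907775 (minus strand) and Oasl2 at chr5:114896684-114896983 (plus strand).
Ifit1: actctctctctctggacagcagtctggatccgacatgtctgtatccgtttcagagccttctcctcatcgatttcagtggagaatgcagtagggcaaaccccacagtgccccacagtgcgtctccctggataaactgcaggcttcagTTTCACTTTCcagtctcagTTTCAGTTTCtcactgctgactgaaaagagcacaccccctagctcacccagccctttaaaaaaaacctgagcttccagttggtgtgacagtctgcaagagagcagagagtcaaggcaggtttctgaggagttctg
Ifit3: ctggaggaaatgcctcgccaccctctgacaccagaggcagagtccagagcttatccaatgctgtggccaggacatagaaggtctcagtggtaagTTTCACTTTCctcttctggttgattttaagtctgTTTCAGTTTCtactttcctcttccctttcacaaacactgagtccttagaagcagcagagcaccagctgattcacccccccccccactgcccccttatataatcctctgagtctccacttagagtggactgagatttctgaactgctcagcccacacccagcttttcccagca
Oas1a: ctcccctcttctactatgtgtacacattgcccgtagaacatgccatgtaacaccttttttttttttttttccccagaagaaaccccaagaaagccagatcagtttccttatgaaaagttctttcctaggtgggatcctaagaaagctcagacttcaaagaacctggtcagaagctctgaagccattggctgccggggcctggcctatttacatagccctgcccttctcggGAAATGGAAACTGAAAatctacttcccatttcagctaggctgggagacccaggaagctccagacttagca
Oasl2: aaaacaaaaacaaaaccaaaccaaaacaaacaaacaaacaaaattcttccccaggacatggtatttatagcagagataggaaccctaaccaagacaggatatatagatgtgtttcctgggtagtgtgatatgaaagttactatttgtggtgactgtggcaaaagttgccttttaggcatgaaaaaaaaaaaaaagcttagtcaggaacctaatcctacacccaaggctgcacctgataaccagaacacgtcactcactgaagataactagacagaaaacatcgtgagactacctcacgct

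Of all 32851 RefSeq windows, 3.44% held the response-element core, and 0.225% held it 2 or more times. Among the 10 genes it was present in 3 of 7 windows (3 of 6 genes), each time as a pair. Neither Ifit2 window nor the windows of Oasl1 and Oasl2 held it. The gamma-activated site was present in 8.30% of all windows, in the Oas1a window as TTCAAAGAA and in 1 of the 2 Ifit2 windows as TTCCTGGAA. Genes with the pair had log2 fold changes of 2.30 (Ifit1), 3.45 (Ifit3) and 1.47 (Oas1a), and genes without it 1.31 (Ifit2), 0.85 (Oasl1) and 3.22 (Oasl2). As ratios of means these were 11.1, 21.6 and 11.2 with the pair and 3.49, 7.16 and 16.0 without it. Since these 6 genes were chosen on that contrast, no relation between motif and difference is read from them. A match is a description of a 300-base window and not a measured binding site. Oas2, Ifi27, Ifi27l2a and Ifi27l2b had no window to search. Among other interferon-stimulated effectors, 11 of 33 genes with a window held the core, and among genes listed as responding mainly to interferon gamma, 8 of 9.

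The OAS genes lie in 2 places on chromosome 5. Oasl2 and Oasl1 lie on the plus strand, 11.0 kb apart, between 114896936 and 114937915, and Oas2 and Oas1a on the minus strand, 146 kb apart, between 120730333 and 120907521. Oasl2, an OAS-like enzyme that in mice still makes oligoadenylates, had 24.3, 16.3 and 20.5 TPM in knockout libraries, against 1.34, 1.05 and 1.43 TPM in wild-type libraries. The lowest knockout library was far above the highest wild-type library. Its means were 20.4 ± 4.02 TPM in knockout muscle and 1.27 ± 0.195 TPM in wild-type muscle (SD, n = 3 each), a ratio of 16.0. Its neighbour Oasl1, which lacks the enzyme activity and in mice represses translation of Irf7 messenger RNA, had 1.35, 0.783 and 1.14 TPM in knockout libraries and 0.150, 0.160 and 0.148 TPM in wild-type libraries. It was the lowest of the 10 genes in knockout muscle, and its wild-type values differed by little, with an SD of 0.00659 TPM. The ratio of its means was 7.16, while its log2 fold change on the log2(TPM + 1) scale was 0.85, a scale that understates changes of low genes.

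Oas2, an oligoadenylate synthetase with a doubled catalytic unit, had 4.42, 4.07 and 4.59 TPM in knockout libraries and 0.588, 0.590 and 0.718 TPM in wild-type libraries. It varied least among knockout libraries of the 10 genes relative to its mean, at 4.36 ± 0.265 TPM. Oas1a, a single-unit synthetase, had 2.56, 1.77 and 2.78 TPM in knockout libraries and 0.198, 0.0892 and 0.346 TPM in wild-type libraries. The ratios of means were 6.90 for Oas2 and 11.2 for Oas1a. The Oas1a value is uncertain, since 68.8% of its 31-base words also occur in transcripts of other genes and 68.7% of its words occur in those of Oas1g, so that reads could have been divided between these copies. Oas1g itself averaged 1.24 ± 0.470 TPM in knockout muscle and 0.0845 ± 0.0717 TPM in wild-type muscle, and it did not pass the filter on low values. Oas3, the largest synthetase, averaged 0.432 ± 0.0469 TPM in knockout muscle and 0.167 ± 0.0829 TPM in wild-type muscle and was not tested for the same reason.

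The IFI27 genes lie on chromosome 12 between 103434211 and 103457223. Ifi27 is on the plus strand, Ifi27l2a follows it 1.93 kb away on the minus strand, and Ifi27l2b lies 7.22 kb beyond. Ifi27l2a, a small interferon-induced protein that restricts West Nile virus in mice, had 225, 143 and 231 TPM in knockout libraries, against 15.9, 19.2 and 14.0 TPM in wild-type libraries. It was the most abundant of the 10 genes in every knockout library. Its mean ratio was 12.2 and its log2 fold change 3.51, the largest of the 10. Ifi27, linked to apoptosis through mitochondria, had 58.4, 51.9 and 43.7 TPM in knockout libraries and 29.7, 28.1 and 43.1 TPM in wild-type libraries. Knockout library 3 and wild-type library 3 were nearly equal, and the mean ratio of 1.53 was the smallest of the 10. The log2 fold change of Ifi27 was 0.61 on the deposited scale and 0.23 after trimmed-mean rescaling. Ifi27l2b had 15.4, 4.26 and 9.23 TPM in knockout libraries and 0.0840, 0.0438 and 0.0492 TPM in wild-type libraries. All 3 wild-type values were close to 0, which gave the largest ratio of means, 163, and a log2 fold change of 3.18. Its spread among knockout libraries was also the widest relative to its mean, at 9.63 ± 5.58 TPM.

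The order of levels differed between genotypes, as read from TPM, which is per length. In knockout muscle Ifi27l2a stood above Ifi27, followed by Ifit3 and Oasl2, whose ranges overlapped. Ifi27l2b, Ifit1, Ifit2 and Oas2 came next, each overlapping its neighbour, and then Oas1a and Oasl1, which did not overlap. In wild-type muscle Ifi27 stood above Ifi27l2a, and both were apart from the rest. Ifit2, Oasl2, Ifit3, Ifit1 and Oas2 followed with overlapping ranges, then Oas1a and Oasl1, which overlapped, and Ifi27l2b was lowest. Ifi27l2b was thus at place 5 in knockout muscle and at place 10 in wild-type muscle. The 10 genes summed to 370.1, 246 and 351 TPM in knockout libraries and to 52.0, 52.0 and 62.5 TPM in wild-type libraries. Ifi27l2a made up 61.6 ± 3.84% of that sum in knockout muscle and 30.0 ± 7.31% in wild-type muscle, while Ifi27 made up 16.5 ± 4.38% in knockout muscle and 60.1 ± 7.88% in wild-type muscle (SD, n = 3 each). Without these 2 genes, the sum was 50.5 to 87.0 TPM in knockout libraries and 4.63 to 6.32 TPM in wild-type libraries.

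Ratios between neighbouring genes within a library do not depend on the scale of that library. The ratio of Ifi27l2a to Ifi27 was 3.85, 2.76 and 5.28 in knockout libraries, against 0.536, 0.685 and 0.325 in wild-type libraries. Ifi27l2a therefore exceeded Ifi27 in each knockout library and in no wild-type library. The ratio of Ifit3 to Ifit2 was 4.31, 3.65 and 4.12 in knockout libraries and 0.671, 0.929 and 0.437 in wild-type libraries, and that of Ifit1 to Ifit2 was 1.61, 1.27 and 1.28 in knockout libraries and 0.524, 0.463 and 0.318 in wild-type libraries. Both ratios were above 1 in each knockout library and below 1 in each wild-type library. The ratio of Oasl2 to Oasl1 was 18.0, 20.8 and 17.9 in knockout libraries and 8.91, 6.58 and 9.67 in wild-type libraries. That of Oas1a to Oas2 was 0.579, 0.434 and 0.605 in knockout libraries and 0.337, 0.151 and 0.482 in wild-type libraries, and it was the only one of the 7 pairs plotted whose groups overlapped. These ratios come from the contrast on which the genes were chosen and carry no test.

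**Figure D2:**
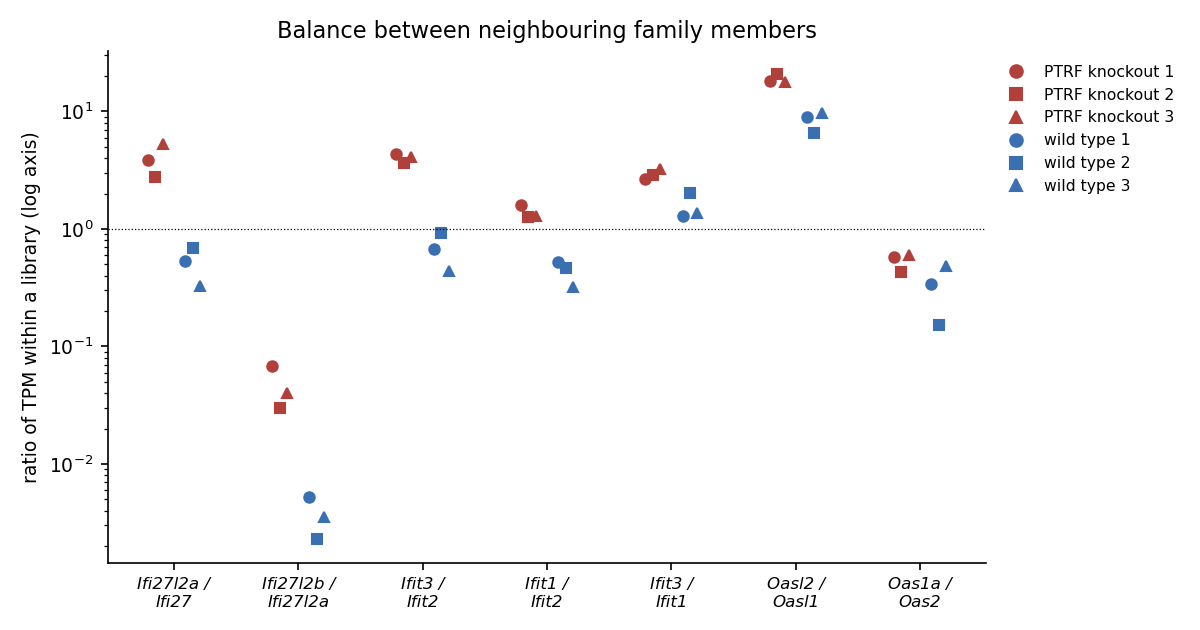
Ratio of the TPM of 2 genes within each library on a log axis, for 7 pairs of family members, with knockout points left of wild-type points. The dotted line marks a ratio of 1, which Ifi27l2a to Ifi27, Ifit3 to Ifit2 and Ifit1 to Ifit2 exceed in each knockout library and in no wild-type library.

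Knockout library 2 was the lowest of the knockout libraries for 9 of the 10 genes, Ifi27 being the exception with its lowest value in library 3. The same library was lowest for 54.4% of all tested genes. The level in library 2 divided by the mean of libraries 1 and 3 had a median of 0.645 over the 10 genes and of 0.887 over all tested genes. For single genes it ran from 0.346 for Ifi27l2b to 0.904 for Oas2 and 1.02 for Ifi27. The highest value was in knockout library 1 for 5 genes and in library 3 for the other 5. Library 2 also had the highest mitochondrial share of the knockout libraries, 45.7%, against 39.0% in library 1 and 42.2% in library 3. Among tested genes listed as responding mainly to interferon gamma, library 2 was the lowest of the knockout libraries for 9 of 9. Among other interferon-stimulated effectors it was lowest for 31 of 36, and among macrophage markers for 8 of 12. It was lowest for 9 of 12 JAK, STAT and IRF genes and for 4 of 4 tested genes downstream of the OAS enzymes. Nucleic acid sensors had it lowest in 4 of 10 cases and negative regulators in 4 of 9. It was lowest for 2 of 5 interferon receptor genes, 4 of 9 skeletal muscle markers, 1 of 6 endothelial markers and 1 of 6 fibroblast markers. The part of these measures in the spread of the 10 genes was not tested.

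**Figure D3:**
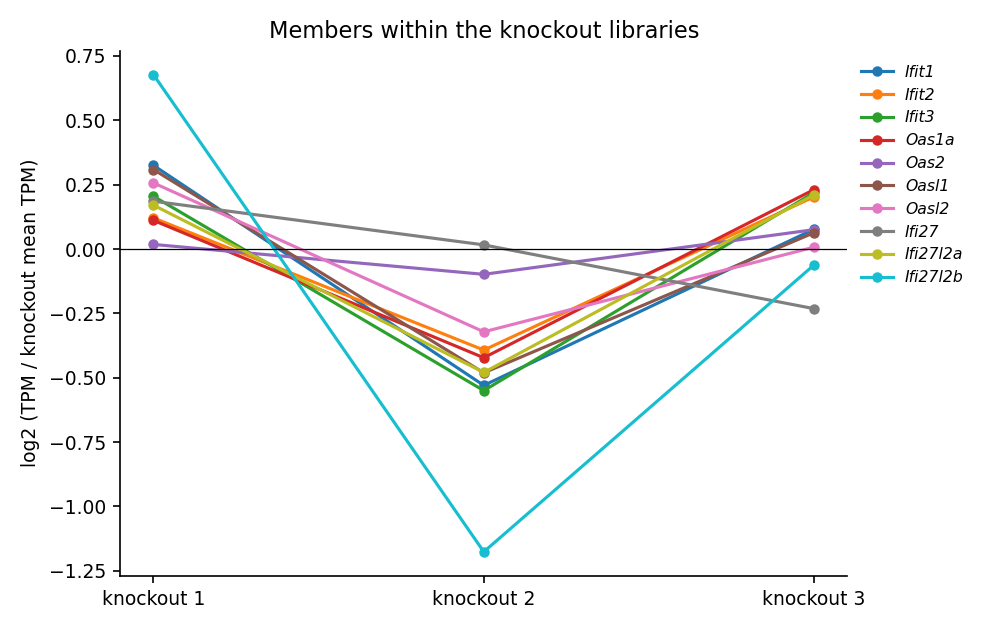
Level of each of the 10 genes in the 3 knockout libraries as log2 of its TPM over its knockout mean; a line joins the values of 1 gene and the libraries have no order. Library 2 is lowest for 9 genes, most for Ifi27l2b, while Ifi27 is lowest in library 3.

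Close copies of the 10 genes and genes beside them were read next. Ifit3b, which lies between Ifit3 and Ifit1, shares sequence with Ifit3: 61.8% of the 31-base words of Ifit3 occur in it. Ifit3b had 5.49, 4.42 and 5.80 TPM in knockout libraries, against 0.695, 0.364 and 0.487 TPM in wild-type libraries, and it was called higher in knockout muscle (log2 fold change 2.04, limma adjusted p = 4.04e-06). It passed the filter by its knockout libraries alone, and how reads were divided between Ifit3 and Ifit3b is not given in the sources used here. Of the other genes in the IFIT cluster, Ifit1bl1 averaged 0.118 ± 0.0433 TPM in knockout muscle and 0.127 ± 0.0345 TPM in wild-type muscle, and its groups overlapped. Ifit1 shares 10.8% of its words with other transcripts, Ifi27l2a 6.01%, Ifi27l2b 2.80% and Oasl2 1.23%. Ifit2, Oas2 and Ifi27 share none. Within 100 kb of the 4 loci, a window chosen after values were seen, 9 tested genes belonged to no list used here. Of these, 5 were called higher and none lower by limma, with a median log2 fold change of 0.40, beside 36.3% called higher and a median of 0.33 over all tested genes. Beside the IFIT genes, Ch25h and Lipa were called higher, with log2 fold changes of 1.62 and 0.83. Ch25h averaged 2.55 TPM in knockout muscle and 0.133 TPM in wild-type muscle, and it passed the filter by its knockout libraries alone. Near Oasl2 and Oasl1, 3 of 4 tested neighbours were called higher. Beside the IFI27 genes, Asb2, Otub2 and Ddx24 were tested and none was called, with log2 fold changes of 0.03, 0.25 and 0.19.

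The interferons themselves had almost no measured level. Of 12 interferon genes of types I, II and III, 11 had no value above 0 in any of the 6 libraries, among them Ifnb1. Ifng, the type II interferon, had 0.114 TPM in knockout library 1 and no value above 0 in the other 5 libraries. A gene at 0 is listed so in wild-type library 3 and absent from the other libraries, and it cannot be told apart from one below detection, since depth is unknown. Of 6 receptor genes 5 were tested, and limma called 5 higher in knockout muscle (median log2 fold change 0.92), beside 36.3% of all tested genes. The type I receptor chains Ifnar1 and Ifnar2 averaged 6.71 ± 0.982 and 9.87 ± 0.781 TPM in knockout muscle, against 3.64 ± 0.239 and 4.73 ± 0.467 TPM in wild-type muscle (limma adjusted p = 0.00275 and 0.000473). The type II receptor chains Ifngr1 and Ifngr2 averaged 31.2 ± 5.84 and 16.1 ± 1.48 TPM in knockout muscle, against 15.1 ± 3.36 and 9.32 ± 0.541 TPM in wild-type muscle (limma adjusted p = 0.00211 and 0.00216). Il10rb, a chain shared by the type III interferon and IL-10 receptors, averaged 10.4 ± 0.798 TPM in knockout muscle and 4.54 ± 0.818 TPM in wild-type muscle. After quantile normalization, 1373 of all 11056 tested genes were called higher. On that scale 3 of the 5 receptor genes were called, and Ifnar1 and Ifngr2 were not (limma adjusted p = 0.0606 and 0.075). Ifngr2 was also not called after trimmed-mean rescaling (limma adjusted p = 0.0724).

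All 12 tested genes of JAK, STAT and IRF signalling were called higher in knockout muscle (median log2 fold change 1.08). This count and that of the negative regulators below stand beside the 36.3% of all tested genes called higher. The largest change was that of Irf7, a factor that drives further interferon and interferon-stimulated transcription and is itself induced by interferon. It had 17.9, 11.9 and 18.6 TPM in knockout libraries and 1.26, 0.985 and 1.58 TPM in wild-type libraries (log2 fold change 2.90, limma adjusted p = 2.08e-06). Stat2 and Irf9, which are part of the factor that binds the response element, had log2 fold changes of 2.05 and 1.85 (limma adjusted p = 4.04e-05 and 8.57e-06). Irf1, a factor induced by both interferon types, averaged 11.1 ± 4.47 TPM in knockout muscle and 3.11 ± 0.643 TPM in wild-type muscle. After trimmed-mean rescaling 10 of the 12 were called higher, and after quantile normalization 8. Of all 11056 tested genes, 1615 and 1373 were called higher on these scales. Of 9 tested negative regulators, 6 were called higher and none lower as deposited. Rescaled by trimmed means, 4 were called higher and 1 lower, and after quantile normalization 4 higher and none lower. Isg15, a ubiquitin-like protein also counted among the effectors, had a log2 fold change of 2.70 (limma adjusted p = 5.66e-06), and Usp18, the protease that removes it from proteins and blocks receptor signalling, one of 1.67 (limma adjusted p = 2.24e-05). Socs3, an inhibitor of JAK kinases, averaged 3.24 ± 0.485 TPM in knockout muscle and 0.842 ± 0.389 TPM in wild-type muscle, and Ptpn6, a phosphatase of blood cells, averaged 1.39 ± 0.0762 TPM in knockout muscle and 0.279 ± 0.0956 TPM in wild-type muscle.

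The counts for genes downstream of the OAS enzymes and for nucleic acid sensors stand beside the 36.3% of all tested genes called higher. The 4 tested genes downstream of the OAS enzymes had a median log2 fold change of 0.34, beside 0.33 over all tested genes. Of 4 tested genes that act on oligoadenylates, on RNA ends or in the control of this pathway, limma called 1 higher, Cnp, an enzyme that acts on RNA ends and is best known from myelin (3.98 ± 0.343 TPM in knockout muscle and 2.05 ± 0.319 TPM in wild-type muscle, limma adjusted p = 0.00252). That call was lost after trimmed-mean rescaling (limma adjusted p = 0.0621) and quantile normalization (limma adjusted p = 0.168). Abce1, a factor that recycles ribosomes, Pde12, which degrades oligoadenylates, and Angel2, an RNA phosphatase, had limma adjusted p of 0.17, 0.295 and 0.0646. Angel2 was called without knockout library 2 (limma adjusted p = 0.0362). Among sensors of foreign nucleic acid, 8 of 10 tested genes were called higher and 1, Mavs, lower, and 4 of the 10 passed the filter by knockout libraries alone. Mavs, the mitochondrial adaptor of the RNA sensors, was chosen for mention after its values were seen and averaged 32.5 ± 3.26 TPM in knockout muscle and 46.1 ± 5.98 TPM in wild-type muscle (limma adjusted p = 0.0264). It lost its call in each of the fits without knockout library 3, wild-type library 1 or wild-type library 3. Zbp1, a sensor of Z-form nucleic acid, had 9.32, 3.15 and 5.82 TPM in knockout libraries and 0.0854, 0.0436 and 0.0481 TPM in wild-type libraries, a pattern close to that of Ifi27l2b. The cytosolic RNA sensors Ddx58, Ifih1 and Dhx58 had log2 fold changes of 1.32, 1.04 and 1.58. After quantile normalization 4 of the 10 sensors were called higher, beside 1373 of all 11056 tested genes.

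Of 36 tested interferon-stimulated effectors outside the IFIT, OAS and IFI27 families, 36 were called higher, 3 of which passed the filter by knockout libraries alone, and their median log2 fold change was 1.38. Ifitm3, which blocks entry of enveloped viruses, averaged 212 ± 50.5 TPM in knockout muscle and 32.1 ± 2.27 TPM in wild-type muscle, levels near those of Ifi27l2a in knockout muscle. Bst2, which tethers budding viruses, had a log2 fold change of 2.72 (limma adjusted p = 4.04e-06), and Rtp4 one of 2.67 (limma adjusted p = 9.3e-06). Of 13 genes listed as responding mainly to interferon gamma, 9 were tested and 9 were called higher (median log2 fold change 2.31). Ciita, Cxcl9, Cxcl10 and Ido1 did not pass the filter. Ciita averaged 0.350 TPM in knockout muscle and 0.163 TPM in wild-type muscle. Cxcl9 had 2.32, 0.167 and 0.289 TPM in knockout libraries and 0.0871, 0.172 and 0.340 TPM in wild-type libraries, and its groups overlapped. The groups of Ciita, Cxcl10 and Ido1 were apart, with knockout higher. The guanylate-binding GTPases Gbp3 and Gbp2 averaged 18.5 ± 8.03 and 20.0 ± 9.82 TPM in knockout muscle, against 1.72 ± 0.306 and 2.04 ± 0.224 TPM in wild-type muscle. The immunity-related GTPases Iigp1 and Igtp had log2 fold changes of 2.45 and 2.34 (limma adjusted p = 1.68e-05 and 0.000304). These lists were chosen with earlier results of these data known, so their counts are not independent evidence of direction, and they stand beside the 36.3% of all tested genes called higher.

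**Figure D4:**
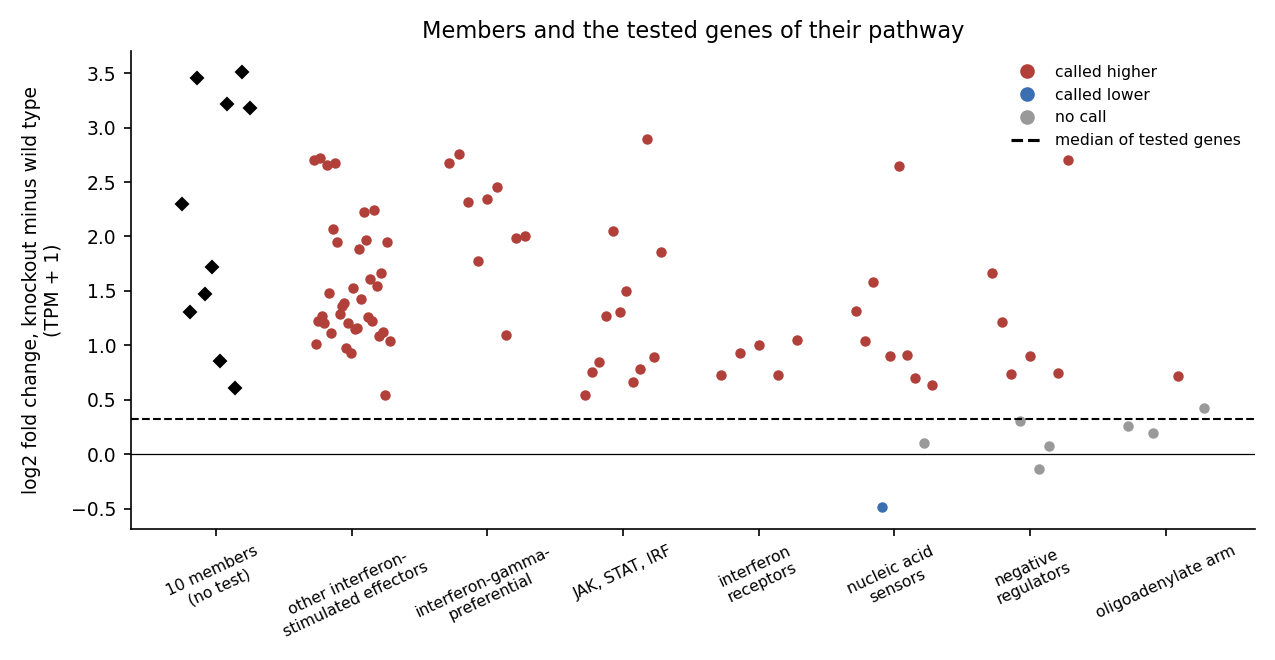
Log2 fold change on log2(TPM + 1), knockout minus wild type, for the 10 genes (black diamonds, no test) and for each tested gene of the pathway lists, coloured by its limma call. The dashed line is the median of all tested genes, 0.33; receptor and signalling genes lie mostly between 0.5 and 1.5, and genes of the oligoadenylate arm lie closest to the line.

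Over the 6 libraries, the mean log2(TPM + 1) of the 10 genes was followed most closely by Parp12 (Pearson r = 0.9994), Rnf213 (0.9992), Parp14 (0.9992), Samd9l (0.9991) and Fcgr4 (0.9989). They were picked for following the difference between genotypes, so their own difference is no finding. Fcgr4, an Fc receptor of myeloid cells, averaged 1.32 ± 0.289 TPM in knockout muscle and 0.0173 ± 0.0299 TPM in wild-type muscle, and it passed the filter by its knockout libraries alone. The points share their libraries and are dominated by the difference between genotypes, and 2995 of 11047 other tested genes had an r of at least 0.9.

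Markers of several other cell types were also higher in knockout muscle. Of 12 macrophage markers, 12 were called higher by limma, 3 of which passed the filter by knockout libraries alone, and their summed level was 181 to 227 TPM in knockout libraries and 38.5 to 46.8 TPM in wild-type libraries. Fibroblast markers were called higher in 6 of 6 cases, with sums of 453 to 576 TPM in knockout libraries and 194 to 196 TPM in wild-type libraries. Endothelial markers were called higher in 5 of 6 cases and lower for Kdr. Their sums were 218 to 251 TPM in knockout libraries and 118 to 133 TPM in wild-type libraries. The calls of these 3 lists are on the deposited scale and stand beside the 36.3% of all tested genes called higher. Marker calls under the other scalings are not given here. The sums of the same 3 lists did not overlap between genotypes, nor did those of the neutrophil, lymphocyte and plasmacytoid dendritic cell lists that follow. Single genes were apart in that direction for 48.7% of all tested genes. Neutrophil marker sums were 4.16 to 41.2 TPM in knockout libraries and 0.699 to 2.64 TPM in wild-type libraries. The highest sum was that of knockout library 1, mostly from S100a8 and S100a9. S100a8 had 13.2, 1.33 and 2.94 TPM in knockout libraries 1 to 3, and S100a9 had 22.7, 2.48 and 4.02 TPM. The groups of Ly6g and Retnlg overlapped, and those of the other neutrophil markers did not. Lymphocyte marker sums were 1.71 to 3.12 TPM in knockout libraries and 0.725 to 0.879 TPM in wild-type libraries, and no lymphocyte marker was at 0 in all libraries. Plasmacytoid dendritic cells, a main source of type I interferon, had marker sums of 14.4 to 18.4 TPM in knockout libraries and 10.1 to 12.0 TPM in wild-type libraries. Most of that sum was Tcf4, a factor also found in many other cells and the only tested marker of the 5, which was called higher (15.7 ± 1.85 TPM in knockout muscle and 10.5 ± 0.951 TPM in wild-type muscle, limma adjusted p = 0.0147). The more specific marker Siglech had 0.219 to 0.503 TPM in knockout libraries and 0.142 to 0.339 TPM in wild-type libraries, and its groups overlapped. The part of any of these cell types in the levels of the 10 genes was not tested.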

How the data were processed

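Polyadenylated RNA was isolated with TRIzol and made into libraries with a NEBNext Ultra kit, per the labels' protocols. The submitters' processing notes name STAR 2.5.3a and kallisto 0.43.0 as tools and GRCm38 and mm10 as builds, but not which step used which. The deposited values were taken as TPM from the values alone, since no header or label names the unit. TPM is a share of a library, so abundant transcripts such as those of mitochondria move all other genes, and it keeps no read depth, so no counting interval is given.

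The 12 samples were grouped by their labels and counted as 6 libraries, because the muscles held equal values. A gene absent from a sample was given 0. The 11056 of 21936 genes that reached 1 TPM in 3 or more libraries were tested on log2(TPM + 1) in R 4.3.3 by limma 3.58.1 using an intensity trend, 4 residual degrees of freedom and Benjamini-Hochberg adjustment over all of them at 0.05. The test was checked on simulated data. P-values reflect only the spread between these samples, possibly technical. The 10 genes, the pathway and marker lists, the alternatives and the tests were chosen with earlier results of these data known. Named genes were the 10, Cavin1, the 4 called genes per list with the largest change and groups apart (all measured genes of a list of 5 or fewer measured, 1 of which is not reported here, and the highest gene where none was called), and the 5 most correlated genes. Mavs, Oas1g, Oas3, Ifit1bl1, Siglech, Tcf4, Kdr, Ifnb1 and the neighbours of the loci were added after their values were seen. So were Ciita, Cxcl9, Cxcl10, Ido1, Myh4, Des, S100a8, S100a9, Ly6g and Retnlg. Positions and shared 31-base words come from GENCODE release M21 (21817 of 21936 identifiers found), promoter windows from RefSeq. Tables were made in Python 3.11.15 (numpy 2.4.6, pandas 2.3.3) and plots in matplotlib 3.10.9. Alternatives were limma without the trend, 3 other scalings, 2 other filters, a replicate block, pseudocounts of 0.1 and 5, and libraries left out.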

Additional observations from a re-analysis of the deposited data

How the results depend on the processing

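None of the 10 genes changed direction under any of the alternatives, a direction that their choice fixes. Their median log2 fold change, 2.01, was 1.62 after quantile normalization, 3.18 with a pseudocount of 0.1 and 0.92 with a pseudocount of 5, and the log2 fold change of Ifi27 ran from 0.23 after trimmed-mean rescaling to 0.80 without wild-type library 3. The count of genes called higher, 4016, was 1615 after trimmed-mean rescaling, 1373 after quantile normalization, 2675 on a scale over nuclear genes alone, 1616 with a filter of 10 TPM, for which 4887 genes were tested, 2002 when knockout library 1 and wild-type library 2 were both left out, and 2521 to 4561 with each library left out in turn. The lowest of these, 2521, came from leaving out wild-type library 2, the only library whose absence moved it by over 1.5 times apart from wild-type library 1 (2676). The count called lower, 323, was 1473, 1450 and 758 under those 3 scalings. The median log2 fold change of all tested genes was -0.01, -0.04 and 0.16 under them, against 0.33. With the filter of 10 TPM, 12 other interferon-stimulated effectors were tested and 12 were called higher. Abce1 and Pde12, which were not called, turned negative after trimmed-mean rescaling (-0.116 and -0.0358) and quantile normalization (-0.0632 and -0.206). The cause of these shifts was not tested. With the replicate number as a replicate block, 4047 genes were called higher and 326 lower, and Angel2 gained a call (limma adjusted p = 0.0462). Deviations of same-numbered samples from their group means had correlations of 0.028, -0.0081 and 0.037. Those of differently numbered samples ran from -0.135 to 0.0984. With 3 libraries per genotype, these values cannot show whether same-numbered samples were paired. Read depth is unknown, which limits what can be said of genes at 0 or below 1 TPM.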
